A study of Homo sapiens with 6 samples.

Results

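Kinesins are motor proteins that walk along or take apart microtubules, and CENP proteins are found at centromeres, at the kinetochores built on them or, for a few, elsewhere. Mitotic kinesins shape the spindle, move chromosomes and end cell division, whereas transport kinesins carry vesicles, organelles and other cargo between divisions. CENP-A replaces histone H3 in centromeric nucleosomes, a constitutive network of CENP subunits sits on that chromatin throughout the cell cycle, and CENP-E and CENP-F join the outer kinetochore in mitosis. Transcripts of many mitotic kinesins and CENP genes are most abundant in G2 and mitosis.

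The genes were all rows of a deposited expression table whose symbol starts with KIF followed by a digit or C, or with CENP followed by a letter. This gave 59 of 15706 genes. By known role, 13 were mitotic kinesins, 23 were CENP genes, 15 were transport kinesins and 8 were other kinesins. The table comes from RNA-seq of MDA-MB-231, a triple-negative line of human breast cancer, in 3 libraries labelled MLL3 knockout and 3 labelled non-targeting control. The knockout cells carried guide RNA against MLL3 (KMT2C), a histone H3 lysine 4 methyltransferase. The control cells, labelled wild type, carried non-targeting guide RNA. All were untreated and grown in DMEM with serum. Each group has biological replicates 1, 2 and 3 by label, with no word on how the cultures were kept apart, so p-values measure the spread between these libraries. Whether the cells were clones or pools, and which exon was cut, is not given in the sources used here. Nor is it given whether the number in each library title also marks a different guide.

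Recovered reads ran from 41401044 to 49514464 in the knockout libraries and from 41240265 to 48244821 in the control libraries. KMT2C RNA did not separate the groups: the knockout libraries held 1519, 1660 and 1339 normalized counts, the control libraries 1367, 1379 and 1255 (0.17 on the log2 scale, SE 0.10, limma adjusted p = 0.205). KMT2C RNA is thus no check of the label, and knockout refers to the label throughout. All 7 markers of MDA-MB-231 listed for this purpose, VIM and CD44 among them, were present. Of 5 genes listed as low in this line, ESR1 and PGR were not among the deposited genes. Of the other 3, CDH1, the epithelial cadherin, stood at 0.982 counts per kb. ERBB2 at 1093 and EPCAM at 501 counts per kb were well detected.

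Of the 59 genes, 57 had a mean of at least 10 normalized counts over the 6 libraries and were tested. KIF5C and KIF6 fell under that minimum. A gene is called higher or lower where the limma adjusted p, taken over all 14618 tested genes, was under 0.05. In knockout libraries 16 of the 57 genes were called higher and 12 lower, while 33.2% of all tested genes were called, 18.9% higher and 14.4% lower. Among mitotic kinesins and CENP genes together 10 of 36 were higher and 8 lower. Among transport kinesins 4 of 14 were higher and 3 lower. The median log2 fold change was -0.012 over the 36 mitotic kinesins and CENP genes, 0.0035 over the 14 transport kinesins and -0.017 over all tested genes. Each of these groups held genes called in both directions, and both medians lay near that of all genes. The 2 groups of libraries did not overlap for 28 of the 57 genes, with 14 higher and 14 lower in the knockout libraries, against 46.3% of all tested genes (23.9% higher, 22.4% lower). Of the 28 calls 14 held in each of the 6 fits that left out 1 library, 12 of them higher and 2 lower (CENPX and KIFC3). The lower calls rested most on single libraries: among mitotic kinesins and CENP genes 2 of the 8 were left without knockout replicate 1, 1 without knockout replicate 2 and 5 without control replicate 3, and among transport kinesins 1 was left without either of those knockout libraries.

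**Figure D1:**
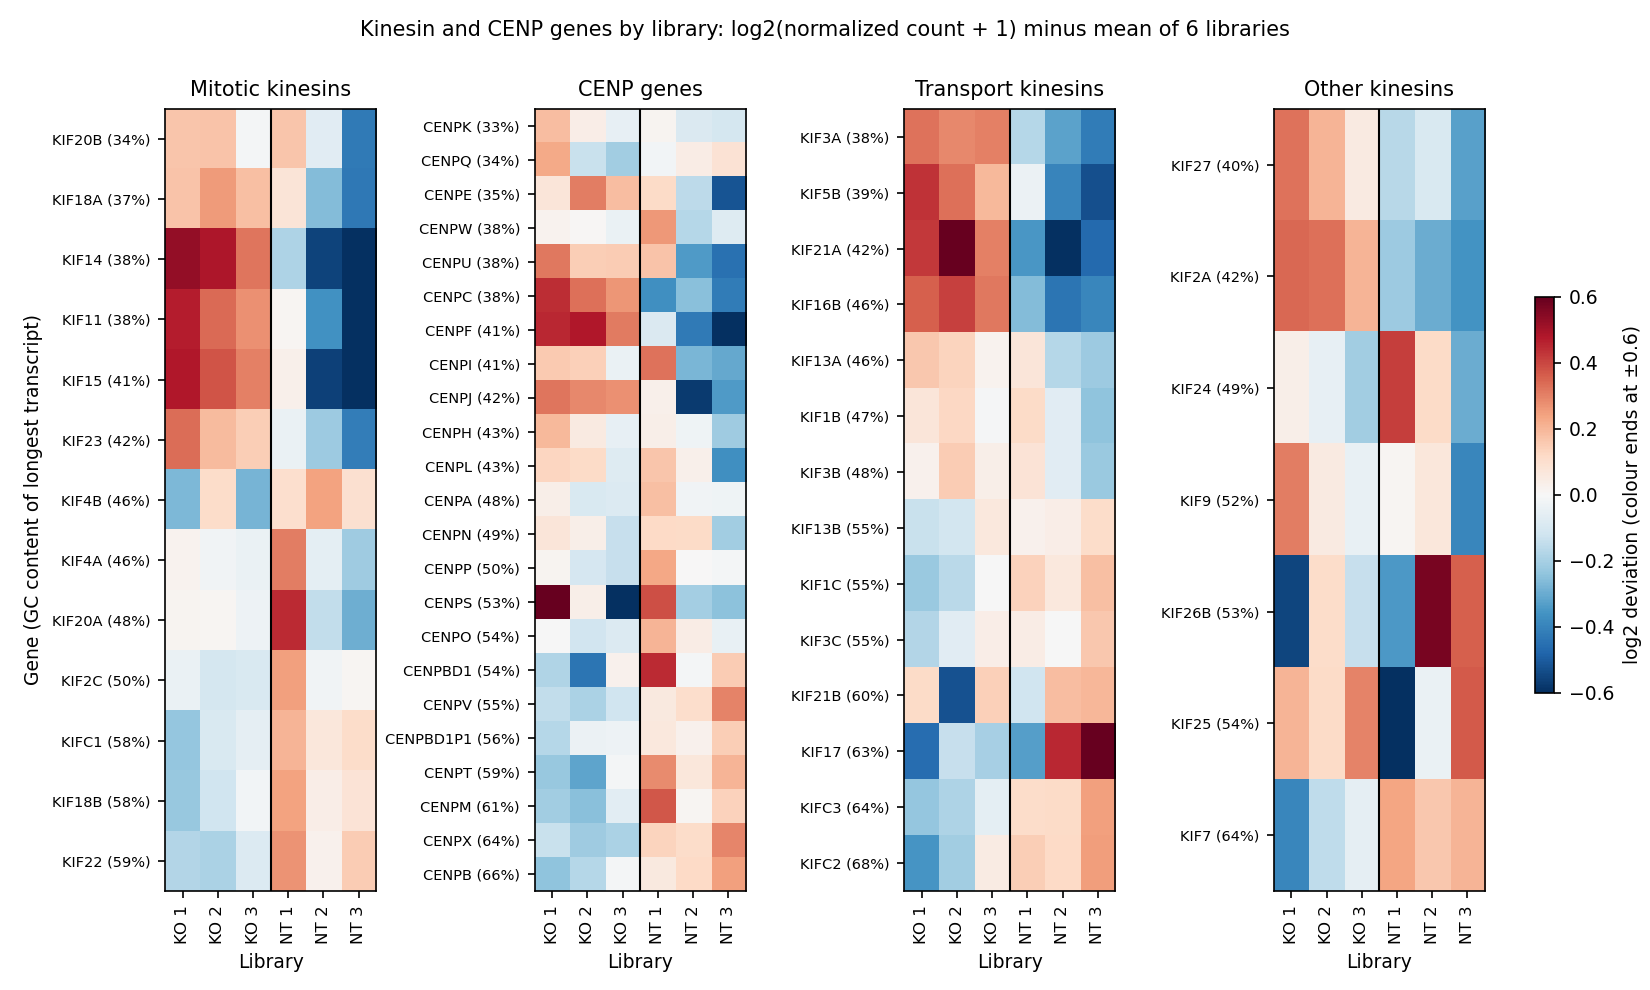
Heat map of the 57 tested genes in the 3 knockout (KO) and 3 control (NT) libraries, 1 panel per role, with genes ordered by the GC content of the longest transcript (in parentheses). Colour is the log2(normalized count + 1) minus its mean over the 6 libraries. Genes at the top of each panel, which are poor in GC, include those called higher in knockout libraries, and the genes called lower lie at the bottom.

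Direction followed base composition. The 16 genes called higher had transcripts of 35.3% to 45.7% GC, and the 12 called lower had 54.9% to 68.1% GC, so the ranges did not meet. When all tested genes were divided at 44.2% and 53.7% GC into classes of equal size, 22 of the 57 genes fell in the class lowest in GC, and 15 of them were called higher and 0 lower. In that class 49.4% of all genes were called higher and 0.719% lower. Of the 16 genes in the middle class 1 was called higher, and of the 19 genes in the class richest in GC 12 were called lower and 0 higher, against 34.3% lower and 0.514% higher over all genes there. Spearman's rho between log2 fold change and GC content was -0.788 over the 57 genes, -0.788 over the 36 mitotic kinesins and CENP genes, -0.930 over the 14 transport kinesins and -0.673 over 14598 genes. These genes share the same 6 libraries, so rho is a description. Within single libraries, the deviations of the 57 genes from their means had a rho with GC content of -0.742, -0.787 and -0.399 in the knockout libraries and 0.292, 0.734 and 0.806 in the control libraries. What part the library preparation or the knockout had in this gradient was not tested.

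**Figure D2:**
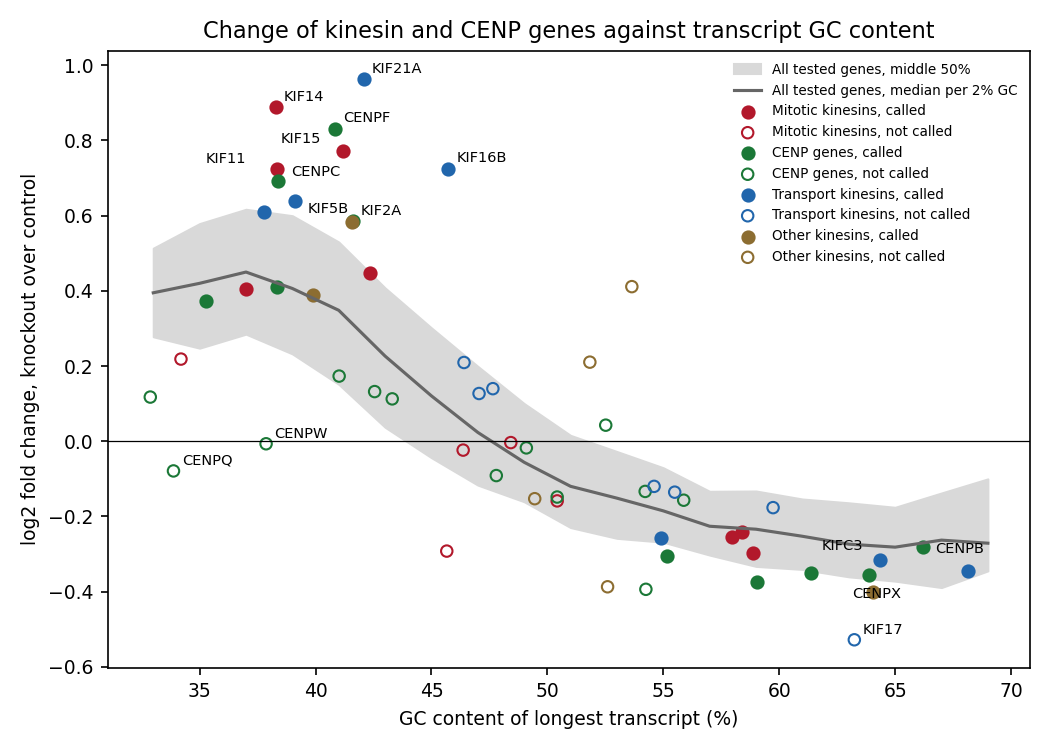
Log2 fold change of knockout over control (vertical axis) against the GC content of the longest transcript in percent (horizontal axis) for the 57 genes, coloured by role and filled where called. The grey line is the median of all tested genes per 2% of GC and the band their middle 50%. KIF14, KIF15, CENPF, KIF21A and KIF16B lie above the band and CENPQ and CENPW below it.

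The limma fit was therefore also run after each library's trend along GC content and transcript length had been subtracted, here called trend removal. After trend removal 6 of the 57 genes were called higher and 3 lower, and 10.0% of all 14598 genes with these annotations were called (4.08% higher, 5.95% lower). The 6 higher genes were the mitotic kinesins KIF14 and KIF15, the outer kinetochore gene CENPF, the transport kinesins KIF21A and KIF16B, and the microtubule depolymerase KIF2A. All of these were also higher before trend removal. KIF14 and KIF21A were called in 5 of the 6 fits that left out 1 library, KIF14 missing without knockout replicate 1 (limma adjusted p = 0.057) and KIF21A without knockout replicate 2 (limma adjusted p = 0.072). CENPF, KIF16B and KIF2A were called in 2 of these fits, without control replicate 1 and without control replicate 3, and KIF15 in 1, without control replicate 1. The 3 lower genes, CENPQ, CENPW and CENPK, were not called before it, and none of the 12 genes called lower before was called after it. Over all 14598 genes rho with GC content was -0.028 after trend removal, and over the 57 genes it was -0.213. For the 14 transport kinesins rho was still -0.868 after trend removal, whereas it was 0.011 for the 36 mitotic kinesins and CENP genes.

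Most promoters of the mitotic kinesins shared a pair of short sequences that promoters of transport kinesins mostly lacked. A RefSeq window (GRCh38.p14) of 300 bases, from 250 before the transcript start to 50 after it, was found for 47 of the 59 genes. The windows were searched on both strands for the cell cycle homology region, TTTGAA or TTCGAA, which MuvB complexes bind, and for CCAAT, which NF-Y binds. The motifs do not overlap in letters. Both occurred in 10 of 13 windows of mitotic kinesins, 5 of 17 of CENP genes and 1 of 11 of transport kinesins, against 6.58% of all 27305 windows. Singly, 16.6% of all windows held a cell cycle homology region and 35.7% a CCAAT. Among mitotic kinesins and CENP genes, both motifs occurred in 6 of 9 windows of genes called higher, in 3 of 7 of genes called lower and in 6 of 14 of genes not called. The 100 bases before the start are shown for genes higher in knockout libraries (KIF11, KIF23, KIF18A and CENPF), for the lower gene KIF22, for KIF4A, which was not called, and for the transport kinesins KIF21A and KIF16B, both higher. They are written 5′ to 3′ on the strand of the gene, with the motifs of either strand in capitals. The first 6 carry at least 1 motif whichever way the gene was called, and the last 2 carry none. They do not stand for every gene of their role. The windows of the mitotic kinesin KIF2C and of CENPE, called higher, held neither motif. That of the transport kinesin KIF5B, called higher, held both. A match is a letter match and not a shown binding site.
KIF11 (chr10:92593030-92593129, plus strand): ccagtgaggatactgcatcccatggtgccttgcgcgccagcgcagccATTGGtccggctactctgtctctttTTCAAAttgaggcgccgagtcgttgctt
KIF23 (chr15:69414249-69414348, plus strand): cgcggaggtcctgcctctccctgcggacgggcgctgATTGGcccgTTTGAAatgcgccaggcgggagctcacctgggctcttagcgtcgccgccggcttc
KIF18A (chr11:28108157-28108256, minus strand): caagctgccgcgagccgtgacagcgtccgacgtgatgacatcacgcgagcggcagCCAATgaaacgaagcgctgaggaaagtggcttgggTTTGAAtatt
CENPF (chr1:214603095-214603194, plus strand): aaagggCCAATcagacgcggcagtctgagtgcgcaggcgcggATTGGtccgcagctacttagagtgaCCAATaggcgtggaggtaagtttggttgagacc
KIF22 (chr16:29790651-29790750, plus strand): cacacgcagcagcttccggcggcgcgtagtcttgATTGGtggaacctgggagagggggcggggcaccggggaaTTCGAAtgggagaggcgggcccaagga
KIF4A (chrX:70290004-70290103, plus strand): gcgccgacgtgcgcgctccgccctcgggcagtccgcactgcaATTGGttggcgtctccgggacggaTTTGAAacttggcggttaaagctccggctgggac
KIF21A (chr12:39443121-39443220, minus strand): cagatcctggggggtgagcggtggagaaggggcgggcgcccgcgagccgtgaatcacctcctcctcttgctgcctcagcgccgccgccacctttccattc
KIF16B (chr20:16573449-16573548, minus strand): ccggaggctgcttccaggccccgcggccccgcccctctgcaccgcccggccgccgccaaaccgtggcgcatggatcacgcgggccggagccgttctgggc

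The mitotic kinesins were called higher in 5 cases and lower in 3 of 13. KIF14, which brings citron kinase to the midbody in cytokinesis, had the largest increase among them. It was read at 2399, 2328 and 2082 normalized counts in the knockout libraries and at 1466, 1134 and 1101 in the control libraries. Every knockout library lay above every control library. The means were 2270 ± 166 and 1234 ± 202 in knockout and control libraries (SD, n = 3 each), a log2 fold change of 0.89 (SE of 0.11, limma adjusted p = 4.7e-05). After trend removal the fold change was 0.45 (SE 0.083, limma adjusted p = 0.0074).

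KIF15 and KIF11 are plus-end-directed motors that keep the spindle bipolar, KIF11 (Eg5) by sliding antiparallel microtubules apart and KIF15 by acting beside it. KIF15 was read at 2026, 1889 and 1791 counts in knockout libraries and 1487, 987 and 939 in control libraries. KIF11 was read at 5685, 5181 and 4960 counts in knockout libraries and 4129, 3182 and 2464 in control libraries. For both genes the groups did not overlap, and control replicate 1 was the highest control. KIF15 rose by 0.77 on the log2 scale (SE 0.14, limma adjusted p = 0.00054) and KIF11 by 0.72 (SE 0.13, limma adjusted p = 0.00062). Trend removal left KIF15 called at 0.44 (limma adjusted p = 0.041), and KIF11 at 0.31 missed the threshold (limma adjusted p = 0.10).

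KIF23 (MKLP1), the motor of the centralspindlin complex, was read at 5562, 5026 and 4887 counts in knockout libraries and 4292, 3795 and 3310 in control libraries. KIF18A, which dampens chromosome oscillations at metaphase, was read at 1200, 1270 and 1207 counts in knockout libraries and 1125, 889 and 790.1 in control libraries. Neither gene's groups overlapped, although control replicate 1 came close to the knockout libraries for KIF18A. The log2 fold changes were 0.45 for KIF23 (SE 0.096, limma adjusted p = 0.0023) and 0.41 for KIF18A (SE 0.12, limma adjusted p = 0.016). After trend removal neither was called, at 0.18 for KIF23 and -0.012 for KIF18A.

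The 3 mitotic kinesins called lower were KIF22, KIFC1 and KIF18B. KIF22 (Kid), a chromokinesin that pushes chromosome arms towards the metaphase plate, was read at 4632, 4581 and 4949 counts in knockout libraries and 6306, 5329 and 5807 in control libraries. KIFC1 (HSET), a minus-end-directed motor that clusters spindle poles and extra centrosomes, was read at 5423, 5967 and 6125 counts in knockout libraries and 7322, 6667 and 6879 in control libraries. KIF18B, which limits astral microtubule length, was read at 2857, 3084 and 3307 counts in knockout libraries and 3962, 3440 and 3541 in control libraries. For each of the 3 genes all knockout libraries lay below all control libraries. The log2 fold changes were -0.30 for KIF22 (SE 0.084, limma adjusted p = 0.013), -0.25 for KIFC1 (SE 0.081, limma adjusted p = 0.024) and -0.24 for KIF18B (SE 0.089, limma adjusted p = 0.044). These changes were smaller than those of the higher genes, and after trend removal they were -0.076, -0.044 and -0.044 for KIF22, KIFC1 and KIF18B, none of them called.

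The other 5 mitotic kinesins were not called. KIF2C (MCAK), a depolymerase that corrects faulty kinetochore attachments, was the most abundant mitotic kinesin per transcript length at 2449 counts per kb. It held 7027, 6699 and 6759 counts in knockout libraries and 8546, 7117 and 7274 in control libraries (log2 fold change -0.16, 95% interval -0.34 to 0.019, limma adjusted p = 0.16). The groups did not overlap, but the gap between them was narrow beside the spread of the controls. KIF20A (MKLP2), which brings the chromosomal passenger complex to the central spindle, held 5962, 5939 and 5765 counts in knockout libraries and 8030, 5328 and 4807 in control libraries. The knockout libraries were close together and lay within the range of the controls, of which replicate 1 was far above the rest (log2 fold change -0.0035, 95% interval -0.28 to 0.27). Without control replicate 1 KIF20A was called higher, at 0.22 (limma adjusted p = 0.030). The chromokinesin KIF4A was at -0.024 and KIF20B, a kinesin of late cytokinesis, at 0.22. KIF4B, a retrocopy of KIF4A that shares most of its sequence, held 14 to 22 reads a library, and reads may be split between the pair.

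**Figure D3:**
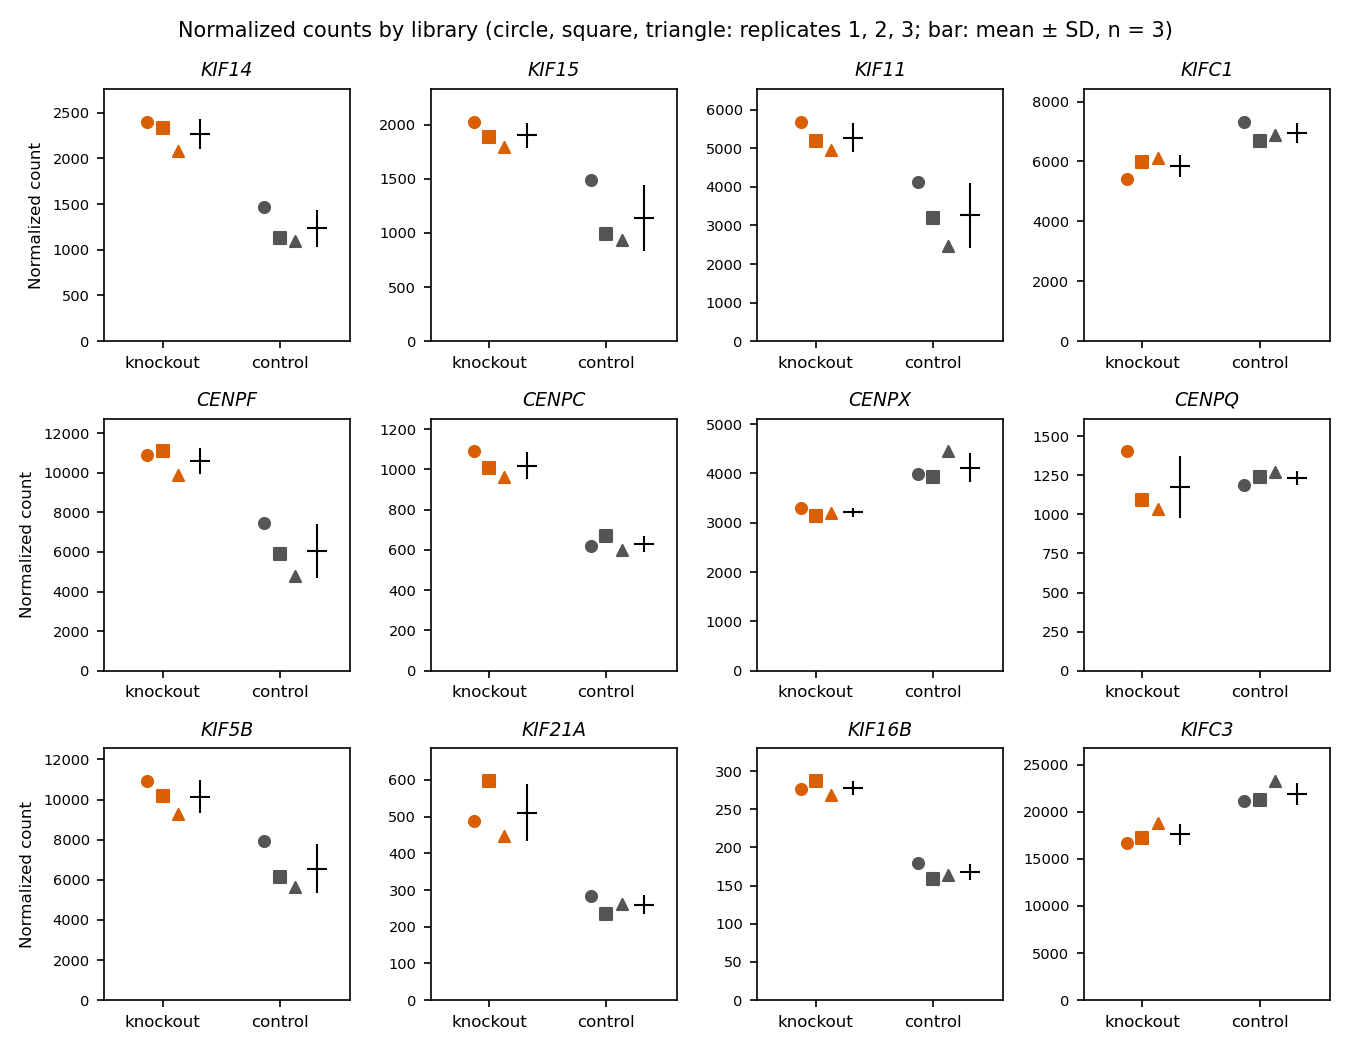
Normalized counts of 12 genes in the knockout and control libraries, each vertical axis starting at 0, with circles, squares and triangles for replicates 1, 2 and 3 and a bar for the mean ± SD (n = 3). The groups do not overlap for 11 of the genes, and they overlap for CENPQ.

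Among the 23 CENP genes 5 were called higher and 5 lower. CENPF, a large coiled-coil protein of the outer kinetochore and a common marker of proliferating cells, was read at 10877, 11080 and 9871 counts in knockout libraries and 7474, 5919 and 4773 in control libraries. The lowest knockout library was above the highest control. CENPF averaged 10609 ± 648 counts in knockout libraries and 6055 ± 1356 in control libraries (SD, n = 3 each), 0.83 higher on the log2 scale (SE 0.12, limma adjusted p = 9.8e-05). After trend removal it was 0.44 (SE 0.092, limma adjusted p = 0.013). CENPE, the kinesin that carries chromosomes to the metaphase plate, held 2043, 2403 and 2211 counts in knockout libraries and 2103, 1743 and 1360 in control libraries. Its groups overlapped through control replicate 1. CENPE was called higher at 0.37 (SE 0.12, limma adjusted p = 0.029), in only 1 of the 6 fits that left out 1 library, and was at -0.096 after trend removal (limma adjusted p = 0.67).

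CENPA and CENPB mark centromeric chromatin and DNA. CENPA, the centromeric histone, held 1601, 1467 and 1474 counts in knockout libraries and 1769, 1541 and 1536 in control libraries, with overlapping groups (log2 fold change -0.091, 95% interval -0.29 to 0.11, limma adjusted p = 0.49). CENPB, which binds a short box in alpha-satellite DNA, held 8539, 8953 and 10007 counts in knockout libraries and 10494, 10946 and 11955 in control libraries. Its groups did not overlap and it was called lower, at -0.28 (SE 0.084, limma adjusted p = 0.017). After trend removal CENPA was at -0.060 and CENPB at -0.052, neither called. The difference between the 2 genes was not tested.

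The constitutive centromere network was represented by 15 genes, of which 2 were called higher and 3 lower. CENPC, the scaffold that joins the CENP-A nucleosome to the rest of the kinetochore, was read at 1089, 1006 and 961 counts in knockout libraries and 620.5, 671 and 597 in control libraries. Its groups were well apart (log2 fold change 0.69, SE 0.11, limma adjusted p = 0.00021), and after trend removal it was at 0.26 (limma adjusted p = 0.065). CENPU, of the CENP-O subcomplex that brings PLK1 to kinetochores, held 3277, 2917 and 2931 counts in knockout libraries and 2967, 2081 and 1933 in control libraries. These overlapped through control replicate 1 (log2 fold change 0.41, SE 0.12, limma adjusted p = 0.018). After trend removal CENPU was at 0.036.

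The other genes of that subcomplex among those selected by symbol, CENPO at -0.13, CENPP at -0.15 and CENPQ, were not called. In CENPQ the knockout libraries held 1403, 1093 and 1036 counts and the control libraries 1186, 1238 and 1274. Knockout replicate 1 was the highest of the 6 and the other knockout libraries were the lowest (log2 fold change -0.079, limma adjusted p = 0.62). CENPQ transcripts are poor in GC (33.9%), and after trend removal CENPQ was called lower at -0.46 (SE 0.081, limma adjusted p = 0.0055), also in each of the 6 fits that left out 1 library. It was the only one of the 9 genes called after trend removal for which this held. The GC content of CENPQ ranked at percentile 0.478 of all genes, and that of CENPK at percentile 0.179. Values after trend removal there rest on the fitted trend near its end, which leaving out single libraries does not test.

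CENPT, CENPW, CENPS and CENPX are histone-fold proteins that form 1 complex. CENPX was read at 3307, 3137 and 3189 counts in knockout libraries and 3983, 3919 and 4445 in control libraries, and CENPT at 1932, 1818 and 2243 counts in knockout libraries and 2760, 2376 and 2610 in control libraries. Neither gene's groups overlapped. CENPX was lower at -0.36 (SE 0.084, limma adjusted p = 0.0044) and CENPT at -0.37 (SE 0.098, limma adjusted p = 0.0086). After trend removal CENPX was at -0.075 and CENPT at -0.16, neither called. CENPW, at 1273, 1258 and 1219 counts in knockout libraries and 1498, 1112 and 1189 in control libraries, was at -0.0067 and was called lower only after trend removal (-0.36, limma adjusted p = 0.031), a call that held only without control replicate 1 or 2. CENPS was read at 20.2 to 48.6 counts in knockout libraries and 26.1 to 40.9 in control libraries, too few to place it (95% interval of the log2 fold change -0.74 to 0.82).

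Of the CENP-H, CENP-I, CENP-K and CENP-M group only CENPM was called. It held 1402, 1363 and 1553 counts in knockout libraries and 2100, 1637 and 1786 in control libraries, without overlap (log2 fold change -0.35, SE 0.10, limma adjusted p = 0.017). After trend removal CENPM was at -0.073 and not called. CENPH, CENPI and CENPK were at 0.13, 0.17 and 0.12, and CENPK was called lower after trend removal at -0.26 (limma adjusted p = 0.028), a call that held in 1 of the 6 fits, without control replicate 1. CENPN, which binds the CENP-A nucleosome, was at -0.018 and its partner CENPL at 0.11. Outside the centromere, CENPJ (CPAP), a regulator of centriole length, was read at 705, 689 and 683 counts in knockout libraries and 577, 379 and 446 in control libraries. All knockout libraries lay above the controls (log2 fold change 0.59, SE 0.14, limma adjusted p = 0.0045), and after trend removal CENPJ was at 0.27 (limma adjusted p = 0.22). CENPV, with 1533, 1489 and 1567 counts in knockout libraries and 1770, 1830 and 2088 in control libraries, was called lower at -0.31 (SE 0.094, limma adjusted p = 0.020). After trend removal CENPV was at -0.11 and not called. CENPBD1, which shares a DNA-binding domain with CENPB, was at -0.39 (limma adjusted p = 0.062) and CENPBD1P1, a related row, at -0.16, neither called.

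Of the 15 transport kinesins 14 were tested, with 4 called higher and 3 lower. KIF21A, a motor that also restrains microtubule growth at the cell cortex, had the largest increase of all 57 genes. It was read at 488, 597 and 448 counts in knockout libraries and 284, 234 and 263 in control libraries. The groups were far apart, with 511 ± 77.4 counts in knockout libraries and 260.4 ± 25.2 in control libraries (SD, n = 3 each). The log2 fold change was 0.96 (SE 0.14, limma adjusted p = 0.00015), and 0.65 after trend removal (SE 0.13, limma adjusted p = 0.0095). KIF16B, which moves early endosomes towards plus ends, held 277, 287 and 269 counts in knockout libraries and 180.0, 159 and 164 in control libraries. Replicates within each group were close and the groups did not overlap (log2 fold change 0.73, SE 0.15, limma adjusted p = 0.0020). Trend removal changed KIF16B little, to 0.61 (SE 0.13, limma adjusted p = 0.013).

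KIF5B, the ubiquitous kinesin-1 heavy chain that carries mitochondria, lysosomes and other cargo, was read at 10931, 10192 and 9286 counts in knockout libraries and 7912, 6148 and 5620 in control libraries. Its groups did not overlap and it rose by 0.64 (SE 0.11, limma adjusted p = 0.00033). After trend removal KIF5B was at 0.23 (limma adjusted p = 0.093). The neuronal heavy chain KIF5C, under the minimum for testing, had 12, 8 and 16 reads in knockout libraries and 2, 4 and 4 reads in control libraries. KIF6, the other untested gene, had 2, 4 and 7 reads in knockout libraries and 1, 4 and 2 in control libraries.

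The kinesin-2 subunits, which drive transport along cilia and of endosomes, differed in their calls. KIF3A was read at 782, 762 and 769 counts in knockout libraries and 554, 498 and 466 in control libraries. Its groups did not overlap, and it was called higher at 0.61 (SE 0.11, limma adjusted p = 0.00084). Its partners KIF3B, at 0.14 (95% interval -0.047 to 0.33), and KIF3C, at -0.14 (95% interval -0.32 to 0.052), were not called, and the differences between the subunits were not tested. After trend removal KIF3A, KIF3B and KIF3C were at 0.17, 0.098 and 0.012, none of them called.

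The lower transport kinesins were KIFC3, KIFC2 and KIF1C. KIFC3, a minus-end-directed motor of epithelial junctions and the Golgi, was the most abundant of all 59 genes at 5760 counts per kb. It held 16687, 17247 and 18845 counts in knockout libraries and 21154, 21226 and 23281 in control libraries, without overlap (log2 fold change -0.32, SE 0.079, limma adjusted p = 0.0065). KIF1C, which moves dense-core vesicles and integrins, held 15203, 15845 and 17677 counts in knockout libraries and 19523, 18493 and 20104 in control libraries. The groups did not overlap for KIF1C either (log2 fold change -0.26, SE 0.080, limma adjusted p = 0.021). KIFC2, at 2227, 2462 and 2950 counts in knockout libraries and 3152, 3093 and 3392 in control libraries, was lower at -0.34 (SE 0.10, limma adjusted p = 0.015). After trend removal KIFC3, KIFC2 and KIF1C were at -0.087, -0.13 and -0.14, none of them called. KIF17, a low transport kinesin best known in dendrites, was not called at -0.53 (95% interval -1.04 to -0.012, limma adjusted p = 0.11). Its groups overlapped through control replicate 1, without which it was called lower at -0.83. The remaining transport kinesins, KIF13A, KIF1B, KIF13B and KIF21B, were at 0.21, 0.13, -0.12 and -0.18, and their groups overlapped.

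Among the 7 other kinesins tested 2 were called higher and 1 lower. KIF2A, which depolymerises microtubules at spindle poles and in interphase, was read at 2214, 2193 and 2008 counts in knockout libraries and 1501, 1418 and 1361 in control libraries. Its groups were apart (log2 fold change 0.58, SE 0.092, limma adjusted p = 0.00022), and it remained called after trend removal at 0.28 (SE 0.061, limma adjusted p = 0.015). The ciliary-tip kinesin KIF7, a regulator of Hedgehog signalling, held 482, 569 and 608 counts in knockout libraries and 744, 708 and 727 in control libraries. It was called lower at -0.40 (SE 0.12, limma adjusted p = 0.016), whereas its paralog KIF27 was called higher at 0.39 (SE 0.14, limma adjusted p = 0.036). The 2 paralogs differ in GC content, 64.1% for KIF7 and 39.9% for KIF27, and after trend removal they were at -0.18 and 0.012, neither called. KIF9 and KIF24 were at 0.21 and -0.15, and KIF25 (0.41, SE 0.47) and KIF26B (-0.39, SE 0.34) were read at under 60 counts in every library. None of these 4 was called.

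**Figure D4:**
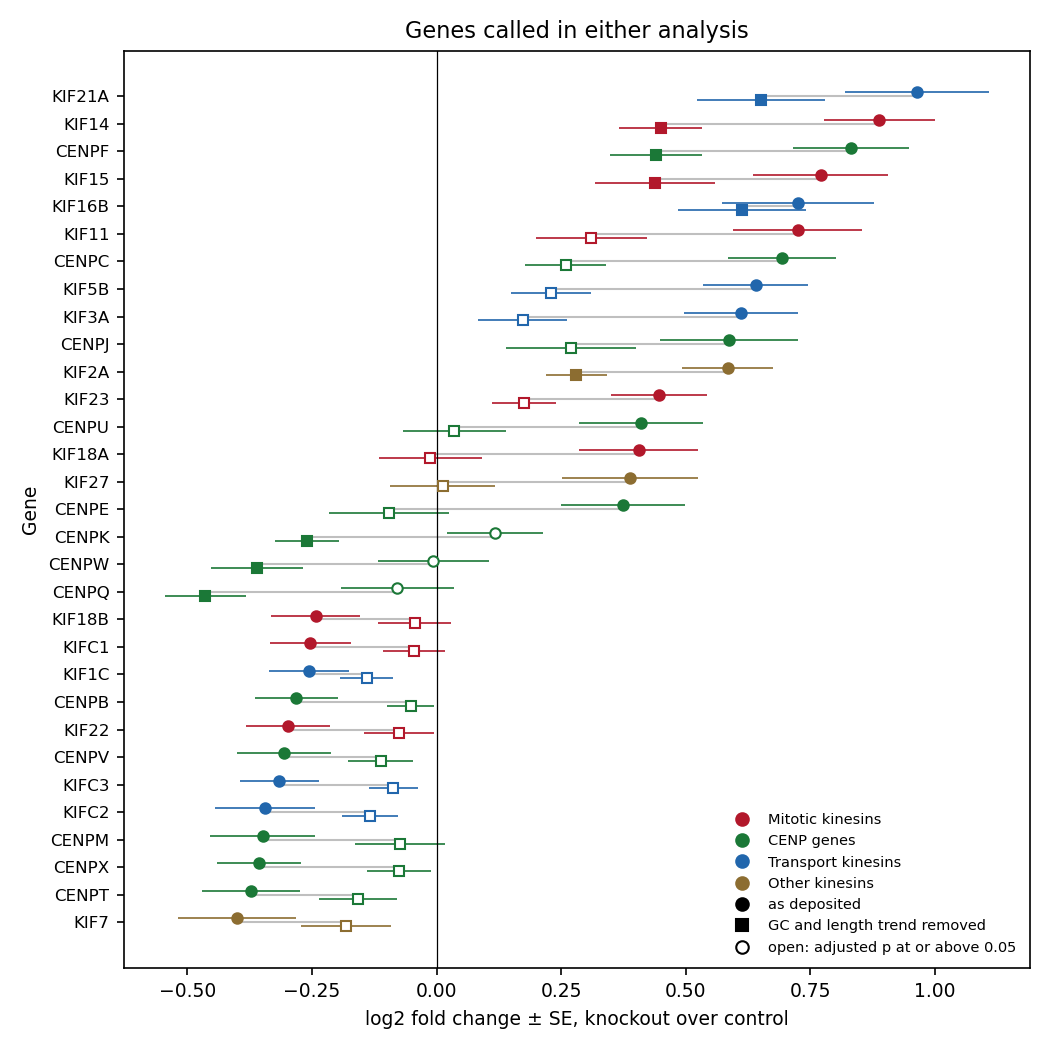
Log2 fold change ± SE of knockout over control for the 31 genes called with or without trend removal, as deposited (circles) and after trend removal (squares), open where the limma adjusted p was 0.05 or above. Of the 28 genes called as deposited 6 stayed called, all higher, and CENPK, CENPW and CENPQ were called lower after trend removal alone.

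The control libraries were spread out in these genes. Control replicate 1 was the highest control for 12 of 13 mitotic kinesins and 17 of 23 CENP genes, but for 7 of 14 transport kinesins and 40.2% of all tested genes. The median deviation of the mitotic kinesins from their means over 6 libraries was 0.023, 0.11 and -0.018 in knockout libraries 1 to 3 and 0.17, -0.070 and -0.29 in control libraries 1 to 3, on the log2 scale. Transport kinesins spanned less, with 0.048, 0.028 and 0.046 in knockout libraries and 0.036, -0.035 and -0.053 in control libraries. Markers of G2 and M phase moved with control replicate 1: it was the highest control for all 12 of them. Their summed counts were 110110, 108754 and 104449 in knockout libraries and 122184, 97866 and 93567 in control libraries. Markers of S phase were also highest in control replicate 1, with median deviations of 0.20, 0.0012 and -0.062 in control libraries 1 to 3. In these bulk libraries more cells of a phase and more RNA per cell cannot be told apart, and the part of the cell cycle in the results above was not tested.

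Without control replicate 1, 13 of the 36 mitotic kinesins and CENP genes were called higher and 7 lower, and 6 of the 14 transport kinesins higher and 4 lower, while 42.2% of all tested genes were called (22.6% higher, 19.6% lower). After trend removal and without control replicate 1 the counts were 8 higher and 3 lower among mitotic kinesins and CENP genes and 5 higher and 1 lower among transport kinesins, with 24.7% of all genes called (10.2% higher, 14.5% lower). Before trend removal, the median of the mitotic kinesins and CENP genes minus that of the transport kinesins was -0.016 with all libraries. It was 0.083 without control replicate 1, so there even its sign rested on that library. After trend removal the difference ran from -0.11 to -0.043 over the fits that left out 1 library, negative in each.

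**Figure D5:**
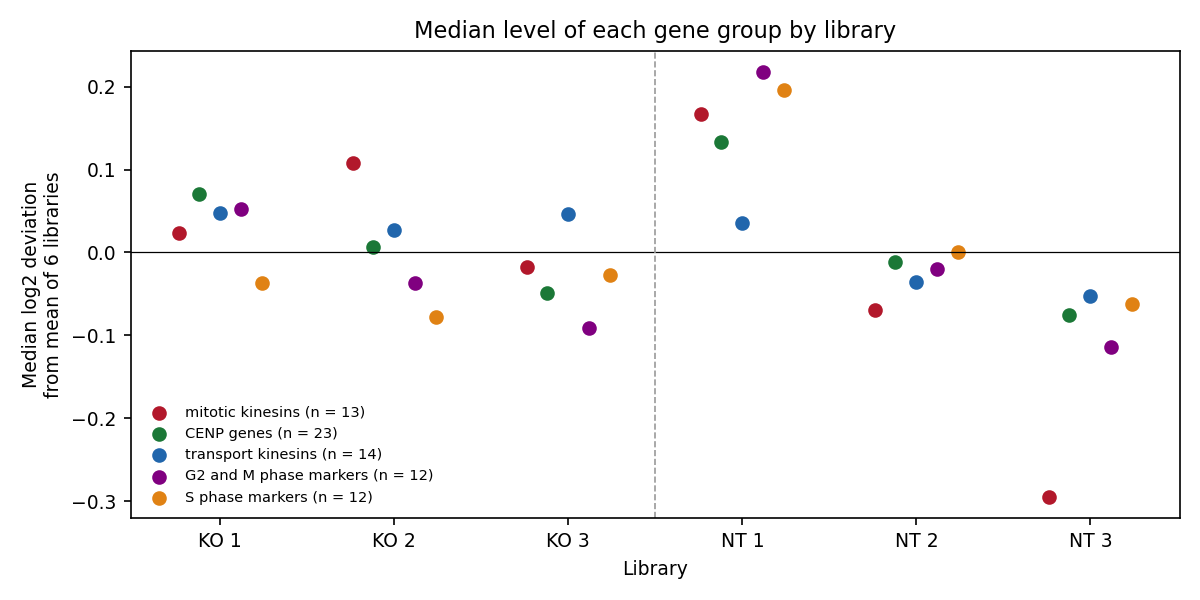
Median log2 deviation from the mean of 6 libraries for 13 mitotic kinesins, 23 CENP genes, 14 transport kinesins, 12 markers of G2 and M phase and 12 markers of S phase, with knockout (KO) libraries on the left and control (NT) libraries on the right. Control replicate 1 is highest for all but the transport kinesins, and the mitotic kinesins are lowest in control replicate 3, at -0.29.

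Partners of these proteins were read from lists fixed by known complex. Beside each list here and below stand the shares of all tested genes, 18.9% called higher and 14.4% lower. After trend removal those shares were 4.08% and 5.95%. In the class lowest in GC 49.4% of all genes were called higher, and 8 of the 10 outer kinetochore genes had under 50% GC. In the outer kinetochore network that binds microtubules 4 of 10 genes were called higher and 1 lower. KNL1, its checkpoint scaffold, held 1765, 1700 and 1400 counts in knockout libraries and 1194, 961 and 843 in control libraries, without overlap (log2 fold change 0.71, SE 0.12, limma adjusted p = 0.00056). NDC80 was higher at 0.49 and its complex partner SPC24 lower at -0.39. After trend removal none of the 10 was called by limma, with KNL1 at 0.25, NDC80 at 0.15 and SPC24 at -0.24. In the chromosomal passenger complex and spindle checkpoint 4 of 12 were higher, among them the checkpoint genes BUB1 (0.41) and BUB1B (0.43), and 2 were lower, AURKB (-0.33) and BIRC5 (-0.21). After trend removal 0 of these 12 were higher, with BUB1 at 0.15 and BUB1B at 0.21, and 3 other checkpoint genes were called lower, BUB3 (-0.18), MAD2L1 (-0.27) and TTK (-0.25). Of 12 spindle and cytokinesis factors 4 were higher and 2 lower (PLK1 at -0.30 and TACC3 at -0.25), and after trend removal 2 were higher and 0 lower.

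The cytokinesis genes ANLN and ECT2 were called higher both with and without trend removal. ANLN, the actin scaffold of the contractile ring, held 15721, 14775 and 13287 counts in knockout libraries and 10424, 7966 and 7242 in control libraries. ECT2, the exchange factor that activates RhoA at the equator, held 7479, 6949 and 6218 counts in knockout libraries and 4702, 4287 and 3854 in control libraries. Neither gene's groups overlapped. The log2 fold changes were 0.79 for ANLN and 0.69 for ECT2, and 0.41 and 0.27 for ANLN and ECT2 after trend removal (limma adjusted p = 0.011 for both). Whether calls of partner genes and markers after trend removal held in fits that left out 1 library is not given here. Over all genes such calls fell from 1463 to 379 without knockout replicate 1 and to 415 without knockout replicate 2. The markers of G2 and M phase split, with TOP2A (0.62) and MKI67 (0.31) called higher and MYBL2 (-0.35) and FOXM1 (-0.32) among 3 of 12 called lower. For S phase markers 1 of 12 was higher, RRM1 at 0.30, and 3 were lower, with CDT1 at -0.49 and E2F1 at -0.46. CDT1 and E2F1 were also called lower after trend removal, at -0.26 and -0.22, while no marker of either phase was called higher after it. The G2 and M phase markers CCNB1 (-0.22) and CDK1 (-0.19) were called lower after trend removal alone, and TOP2A, MKI67, MYBL2 and FOXM1 were no longer called.

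On the transport side, 3 of 13 kinesin light chains and cargo adaptors were called higher and 2 lower, against 18.9% and 14.4% of all tested genes. TRAK2, an adaptor for mitochondria, was at 0.47 and SPAG9 (JIP4) at 0.38, whereas PLEKHM2 (SKIP), which links kinesin-1 to lysosomes, was at -0.34 and the light chain KLC2 at -0.24. After trend removal none of these 4 was called, with TRAK2 at 0.16, SPAG9 at 0.063, PLEKHM2 at -0.11 and KLC2 at -0.021, and the light chain KLC3 was called higher at 0.46. KIFBP, which binds and inhibits several kinesin motor domains, was called higher at 0.32 (limma adjusted p = 0.0069) and more so after trend removal, at 0.43 (limma adjusted p = 0.0028). It held 5411, 5261 and 5103 counts in knockout libraries and 4478, 4157 and 4027 in control libraries, without overlap. Of 19 genes of dynein and dynactin, the minus-end transport machinery, 6 were higher and 2 lower. DYNC1LI2 at 0.47 and DCTN6 at 0.51 rose, and DCTN3 at -0.25 and NDE1 at -0.27 fell. After trend removal only DYNC1LI2 (0.26) was called higher and DYNLT1 (-0.40) lower.

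The strand setting of the read counting is not given in the sources used here, so reads of overlapping genes cannot be told apart. Exons of 21 of the 59 genes overlapped those of another gene, and for 7 of them a gene on the opposite strand covered over 10% of the exon bases: CENPN, CENPO, CENPP, CENPT, CENPU, KIF7 and KIFC2. The calls for CENPT, CENPU, KIF7 and KIFC2 are uncertain to that extent.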

How the data were processed

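Per the submitters' processing notes, the genome was GRCh38.p13 and the tools were STAR 2.4.0, featureCounts 1.5.0 and DESeq2 1.30.1, beside FastQC. The sources used here give neither annotation release nor strand setting. The deposited table of 15706 genes holds, from the authors, a normalized read count per library, a signal made by dividing reads by 1 size factor per library, the mean over libraries as a signal, and, per the file headers, a log2 fold change with its standard error, a Wald statistic (score), p-value and adjusted p-value. The row numbers run to 19211, and 3505 are not among the rows used here. Division by a common step gave whole reads within 0.01 for 100% of the values. By the adjusted p of the authors' deposited table, at 0.05, 16 of the 55 kinesin and CENP genes with a value were higher and 13 lower.

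The genes and lists were chosen with earlier results of these data known. Tests used limma 3.58.1 in R 4.3.3, with its trend option, on log2(normalized count + 1), 3 knockout against 3 control libraries, over 14618 genes with a mean of at least 10, two-sided, Benjamini-Hochberg adjusted, threshold 0.05. This scale understates the change of low genes. Trend removal subtracted, per library, natural splines with 5 terms each of GC percent and log2 length of the longest transcript (GENCODE 29, 15681 genes matched) from gene-centred values. edgeR 4.0.16 and DESeq2 1.42.0 ran on recovered reads, where edgeR's quasi-likelihood test called 4912 genes. The fit was tested on simulated data. Values by library and full statistics were given for up to 6 called genes of each role per direction and the most abundant of each role. For KIF27 the library values were left out. Genes whose call changed with trend removal were named, CENPK without library values. From each list up to 2 called genes per direction were named. One gene list is not reported here. KIFBP, DYNLT1, KLC3, BUB3, MAD2L1, TTK, CCNB1 and CDK1, and the library values of KIF20A and CENPA, were added after their values were seen.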

Additional observations from a re-analysis of the deposited data

How the results depend on the processing

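All counts here are kinesin and CENP genes called by limma unless stated. With a pseudocount of 5, edgeR's quasi-likelihood test or DESeq2 on recovered reads, the counts were 10 higher and 8 lower among mitotic kinesins and CENP genes and 4 higher and 3 lower among transport kinesins, as in the main test. Quantile normalization gave 8 higher and 6 lower, and 4 higher and 2 lower. Without a filter on low values the median of mitotic kinesins and CENP genes minus that of transport kinesins was -0.139, against -0.016, since KIF5C then counts among transport kinesins. With the GC and length trend removed the counts were 3 higher and 3 lower among mitotic kinesins and CENP genes and 2 higher and 0 lower among transport kinesins, and all tested genes gave 1463 calls in place of 4859. Fits that left out 1 library gave 7 to 13 higher and 1 to 9 lower among mitotic kinesins and CENP genes, 4 to 6 higher and 1 to 4 lower among transport kinesins, and a median difference of -0.085 to 0.083. With the trend removed as well these were 0 to 8, 1 to 3, 0 to 5 and 0 to 1, with a difference of -0.11 to -0.043. Over all tested genes such fits gave 2143, 2499 and 4927 calls without knockout replicates 1, 2 and 3, and 6168, 3680 and 3154 without control replicates 1, 2 and 3. With the trend removed they gave 379, 415 and 604 without the knockout replicates and 3600, 732 and 886 without the control replicates. Deviations of same-numbered libraries correlated weakly, at 0.066, 0.0063 and 0.13 for replicates 1, 2 and 3. Knockout replicates 1 and 3 correlated best with their own number, and knockout replicate 2 with control replicate 1 (0.022). Whether the numbers pair libraries by design is not given by the labels, and these correlations cannot decide it. A fit with the replicate number as a block called 10 higher and 10 lower among mitotic kinesins and CENP genes, 5 higher and 3 lower among transport kinesins and 6265 genes in all. With the trend removed, the block gave 3 higher and 2 lower, and 2 higher and 0 lower. With trend removal the log2 fold change of 12 of the 57 genes turned its sign, 9 of them not called either way. The others, with or without the block, were -0.26 for CENPK, -0.096 for CENPE and -0.012 for KIF18A, where the subtraction of the trend itself moved genes poor in GC downwards. Over fits that left out 1 library, with and without trend removal, CENPK ran from -0.29 to 0.17, CENPM from -0.43 to 0.041, CENPU from -0.040 to 0.60, CENPE from -0.23 to 0.52, KIF18A from -0.082 to 0.55, KIF18B from -0.29 to 0.045, KIF20A from -0.15 to 0.23, KIF20B from -0.36 to 0.36, KIF22 from -0.36 to 0.0089, KIFC1 from -0.29 to 0.017, KIF27 from -0.015 to 0.46, KLC2 from -0.33 to 0.017 and TACC3 from -0.29 to 0.049. Except for KIF20A, every turn of sign among these came with trend removal. Other genes turned sign without trend removal too. CENPQ then ran from -0.21 to 0.0068 and CENPW from -0.095 to 0.12. CENPL, CENPN, CENPS, KIF4A, KIF21B and KIF24, none of them called in the main test, did so as well. Depth limits KIF4B, KIF5C, KIF6, KIF25, KIF26B and CENPS, which were read at under 50 normalized counts in most libraries.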
